A study of Mus musculus with 8 samples.

Results

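The genes described here encode the machinery that brings proteins into mitochondria and trims them on arrival. Every protein-coding gene with a symbol beginning Tomm or Timm was taken, together with Samm50, Mtx1 and Mtx2 of the outer membrane, the motor genes Hspa9, Grpel1, Pam16, Dnajc15 and Dnajc19, the oxidative folding pair Chchd4 and Gfer, and the peptidase subunits Pmpca and Pmpcb. This gave 38 of the 55421 genes in the count table. The antisense transcript Tomm6os was left out because it is not protein-coding. The set was proposed because Pmpcb stood far lower after knockdown of the transcription factor Tfap4, so all values of that knockdown are given as a description. Which genes the fit across all genes called there is stated without p-values, and nothing is read from those calls.

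Counts came from 3′-end sequencing of polyadenylated RNA (QuantSeq) in E14 mouse embryonic stem cells of 129/Ola background, kept in serum and LIF on gelatin. There were 4 groups with 2 biological duplicates each, 8 libraries in all. Untreated wild-type cells (WT) and untreated cells with a knockout of the miR-290-295 microRNA cluster (KO) were prepared and sequenced as one set. The other set was KO cells transfected with a pool of small interfering RNAs (siPOOL) at 5 nM and harvested after 36 hours, with the pool directed either at Tfap4 (siTfap4) or at no target as a negative control (siNeg). Both siPOOL groups therefore lack the microRNA cluster, and no WT cells received a siPOOL. The labels number the KO samples 1 and 2 and do not say whether they are separate clones. The titles of WT replicate 1 and KO replicate 2 share the tag CC, the other untreated titles carry different tags, and the labels do not say what the tags mean. Each comparison stays within its set, and the comparisons share no library.

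Most mitochondrial proteins are made in the cytosol and enter through the TOM complex of the outer membrane. Proteins with a cleavable presequence pass on through the TIM23 complex, pulled by an Hsp70 motor, and the presequence is removed in the matrix by a peptidase made of the Pmpca and Pmpcb subunits. Carrier proteins reach the inner membrane through small chaperones and the TIM22 complex, and barrel-shaped outer membrane proteins are assembled by the SAM complex. Stem cells depend on this import as other cells do, since nearly all respiratory chain subunits and matrix enzymes arrive by it.

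Library totals lay between 8326675 and 12726123 counts, and mitochondrially encoded transcripts made up 4.93% to 6.84% of a library. The identity of the cells was checked with 8 embryonic stem cell markers, all of which were measured and none of which was at 0. Single markers moved within this list. In KO against WT, Klf4 (log2 fold change -1.59, adjusted p = 0.00103) and Utf1 (-0.92, adjusted p = 0.0132) fell by edgeR, and in siTfap4 against siNeg Nanog (-1.49) was called lower and Pou5f1 (1.02) higher. Their part in the values below was not tested. The summed level of the 8 was 3407 to 3752 CPM (counts per library size, scaled by TMM factors) in WT and 3238 to 3314 in KO. It was 2816 to 3148 CPM for siNeg and 2473 to 2598 for siTfap4. The 6 primitive endoderm markers summed to 53.9 to 63.6 CPM in WT, and 9.16 to 9.56 in KO, with siNeg at 6.49 to 8.31 and siTfap4 at 5.31 to 7.14. The 7 fibroblast or feeder markers summed to 30.9 to 54.6 CPM in WT and 11.9 to 22.4 in KO, with siNeg at 11.3 to 13.6 and siTfap4 at 7.67 to 9.94, and Col3a1 was at 0 in every library. Only 3 of these 7 had enough counts to be tested. Most of the sum was Thy1, at 26.5 and 48.3 CPM in WT and 9.56 and 19.7 in KO. The 5 trophectoderm markers summed to 5.12 to 15.1 CPM across all libraries. In RNA from whole cultures, fewer cells of a type and less RNA per cell cannot be told apart. Tfap4 itself stood at 34.4 and 37.4 CPM in siNeg and at 12.4 and 15.8 CPM in siTfap4, so the knockdown groups did not overlap.

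Of the 38 genes, 36 passed the filter on low counts, among 15137 genes in all. Tomm20l, a paralog of the receptor gene Tomm20, had 0 to 3 counts in each library. Tomm6, a small TOM subunit, had 5 and 11 counts in WT, 9 and 10 in KO, and 1 to 3 in each siPOOL library. In Tomm6, 45.3% of the sequence words of 31 bases in the last 200 bases also occur in Gm21981, so some reads may fit both loci. Timm23 and Pam16 are uncertain for the same reason, since they share 85.3% and 93.5% of such words with Gm10273 and Gm9803. Gm21981 and Gm10273 had 0 counts in every library, and Gm9803 had 4 to 11. How reads that fit more than 1 gene or locus were counted is not given in the sources used here. Together the 38 genes took 0.39% to 0.446% of all counts in the untreated libraries, 0.353% and 0.388% in the siNeg libraries, and 0.23% and 0.297% under siTfap4. Their summed level was 4406 and 3946 CPM for WT, 3872 and 3788 for KO, 3449 and 4055 for siNeg, and 2434 and 3093 for siTfap4. Both siTfap4 libraries were thus the lowest of the 8.

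**Figure D1:**
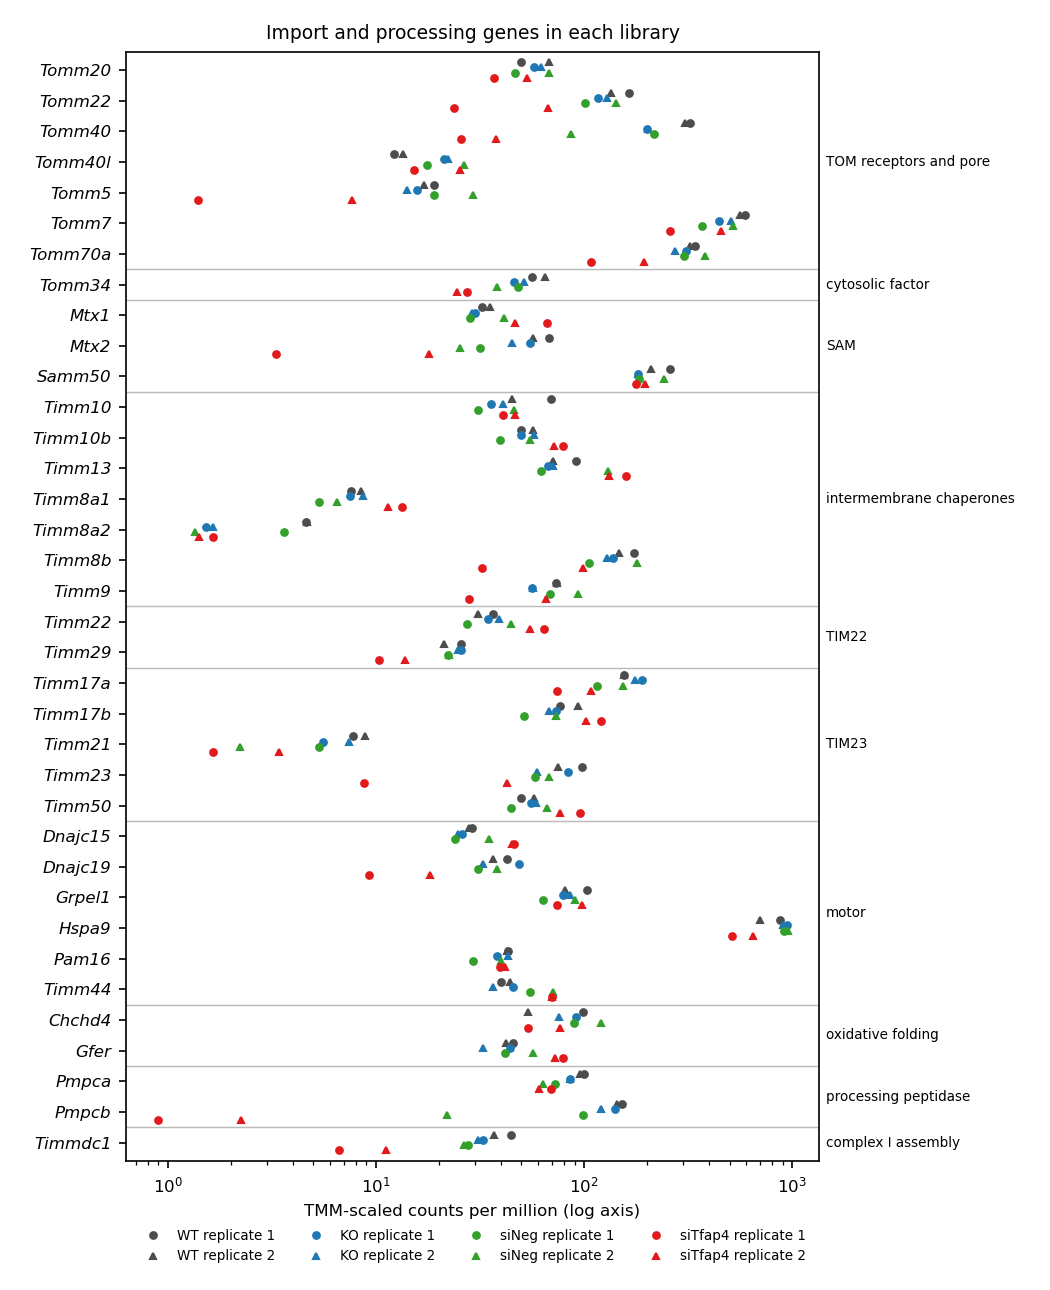
Levels of the 36 measured import and processing genes in each of the 8 libraries, in TMM-scaled CPM on a log axis, grouped by role; circles are replicate 1 and triangles replicate 2. Pmpcb stands at 120.8 to 152.8 CPM in the untreated libraries and at 0.892 and 2.24 CPM in siTfap4, while its partner Pmpca stays between 60.7 and 99.8 CPM in all libraries.

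The comparison of siTfap4 with siNeg asks which transcripts depend on Tfap4 in cells without the cluster. The gene that led to this set, Pmpcb, was almost absent after the knockdown, and 4 of the 7 measured TOM genes were also called lower. In the edgeR fit across all genes, 8 of the 36 genes were called lower, where 11.1% of all tested genes were, and 2 were called higher, where 4.36% were. Both siTfap4 libraries lay below both siNeg libraries for 16 genes and above them for 9, and over all tested genes these shares were 29.3% and 28.9%. The log2 fold change was below 0 for 23 genes and above 0 for 13, with a median of -0.45 beside 0.01 over all tested genes. The knockdown chose the set, so these counts describe it and support nothing.

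Pmpcb encodes the catalytic, zinc-binding subunit of the matrix processing peptidase. The gene (ENSMUSG00000029017) lies on the plus strand of chromosome 5 at 21737141 to 21757152 in GRCm38. WT libraries had 1880 and 1481 counts, KO libraries 1833 and 1464, siNeg libraries 1155 and 227, and siTfap4 libraries 7 and 19. As CPM, WT gave 152.8 and 143.5, KO 140.2 and 120.8, siNeg 98.96 and 21.97, and siTfap4 0.892 and 2.24. The siTfap4 libraries lay far below all others, and siNeg replicate 2 lay well below every untreated library. The log2 fold change in siTfap4 against siNeg was -5.25 (SE 0.71), a 37.9-fold lower level and the 39th lowest value of 15137 genes. It ranged from -6.07 to -3.78 as each library of the comparison was left out, and was -5.28 with no filter on low counts, where Pmpcb was not called. The siNeg duplicates themselves differed by 2.16 on the log2 scale, which ranks 104th of 15137 genes by size.

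Pmpca, the partner subunit that recognises presequences, showed no such difference. Its WT libraries had 99.8 and 95.9 CPM, the KO libraries 85.7 and 85.1, the siNeg libraries 72.2 and 63.7, and the siTfap4 libraries 69.7 and 60.7. The siPOOL groups overlapped, with a log2 fold change of -0.06 (SE 0.23). Pmpca shares 874 bases with Inpp5e on the opposite strand, and the 3′ ends of both genes lie inside this overlap. The strand setting of the counting is not given, so some reads counted for Pmpca may belong to Inpp5e.

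The sequence before the annotated start of Pmpcb is shown because TFAP4 binds E-boxes, of the form CANNTG, with CAGCTG as its preferred form, and Pmpcb had the lowest fold change of the set. These 250 bases come from RefSeq (GRCm38.p6, chr5:21736910-21737159, plus strand, 5′ to 3′), where the start lies a little inside the gene's extent given above.

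Pmpcb: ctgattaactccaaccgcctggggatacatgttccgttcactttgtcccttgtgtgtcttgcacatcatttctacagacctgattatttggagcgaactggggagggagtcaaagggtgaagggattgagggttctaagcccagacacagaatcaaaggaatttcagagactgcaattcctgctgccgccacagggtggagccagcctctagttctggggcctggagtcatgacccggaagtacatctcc

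No CANNTG was found in these bases or in the 50 bases after the start. RefSeq windows of 300 bases (250 before and 50 after the start) were matched for 34 of the 38 genes, giving 36 windows. CANNTG was in 18 of them, beside 72.3% of all 32851 windows, and CAGCTG was in 3 (8.3%), beside 16.3% of all. Both words read the same on the 2 strands, and each CAGCTG is also counted as a CANNTG. The 3 windows with CAGCTG belong to Timm22, Timm29 and Tomm34, and the matches are printed in capitals with 10 bases on each side, as the only members with this form.

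Timm22: acaaacttggCAGCTGtttaaagagg

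Timm29: gccagttcgtCAGCTGctgccatgac

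Tomm34: ttcggtgattCAGCTGtcgcttcagc

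The Timm22 stretch is chr11:76407006-76407031 on the plus strand, with its match beginning 127 bases before the start used for that window. This stretch lies inside the annotated extent of Timm22, 76406952 to 76416292. Another Timm22 window, at 76406675 to 76406974, has no CAGCTG. The Timm29 stretch is chr9:21592536-21592561 on the plus strand, with its match 176 bases before the start. The Tomm34 stretch is chr2:164071384-164071409 on the minus strand, with its match 230 bases before the start used for that window. Another Tomm34 window, at 164071053 to 164071352, has no CAGCTG. Timm29 and Tomm34 had log2 fold changes below 0 in siTfap4 and Timm22 had one above 0. A match in a window is a description of letters and shows no binding.

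Among the TOM genes, all 7 that were measured had log2 fold changes below 0 in siTfap4, with a median of -1.18. Tomm40, the channel through which nearly all precursors pass (chromosome 7, 19701313 to 19715438, minus strand), stood at 324.2 and 304.5 CPM in WT and 199.7 and 203.7 in KO. It stood at 217.5 and 86.2 CPM in siNeg and 25.6 and 37.9 in siTfap4, which gives a log2 fold change of -2.26 (SE 0.36). As with Pmpcb, siNeg replicate 2 was the lower of its pair, yet both siTfap4 libraries lay below it.

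Tomm5 is a small subunit that steadies the TOM channel. WT had 18.9 and 17.1 CPM, KO 15.7 and 14.0, siNeg 19.0 and 29.3, and siTfap4 1.4 and 7.67, so the knockdown's log2 fold change was -2.39 (SE 0.47). Its siTfap4 duplicates stood far apart, and both were lower than the other 6 libraries. The receptor gene Tomm22 stood at 101.5 and 143.1 CPM in siNeg and 23.8 and 66.9 in siTfap4 (log2 fold change -1.43, SE 0.36). Tomm70a, the receptor for carrier precursors, stood at 301.8 and 382.2 CPM in siNeg and 107.5 and 194.3 in siTfap4 (log2 fold change -1.18, SE 0.27). The groups did not overlap for either receptor. The other 3 TOM genes were the receptor gene Tomm20 (-0.34), the small subunit gene Tomm7 (-0.31) and Tomm40l, a paralog of the channel gene (-0.12), and their siPOOL groups overlapped. Tomm34, a cytosolic co-chaperone of precursors, stood at 48.3 and 38.2 CPM in siNeg and 27.4 and 24.4 in siTfap4, without overlap and without a call (log2 fold change -0.74).

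**Figure D2:**
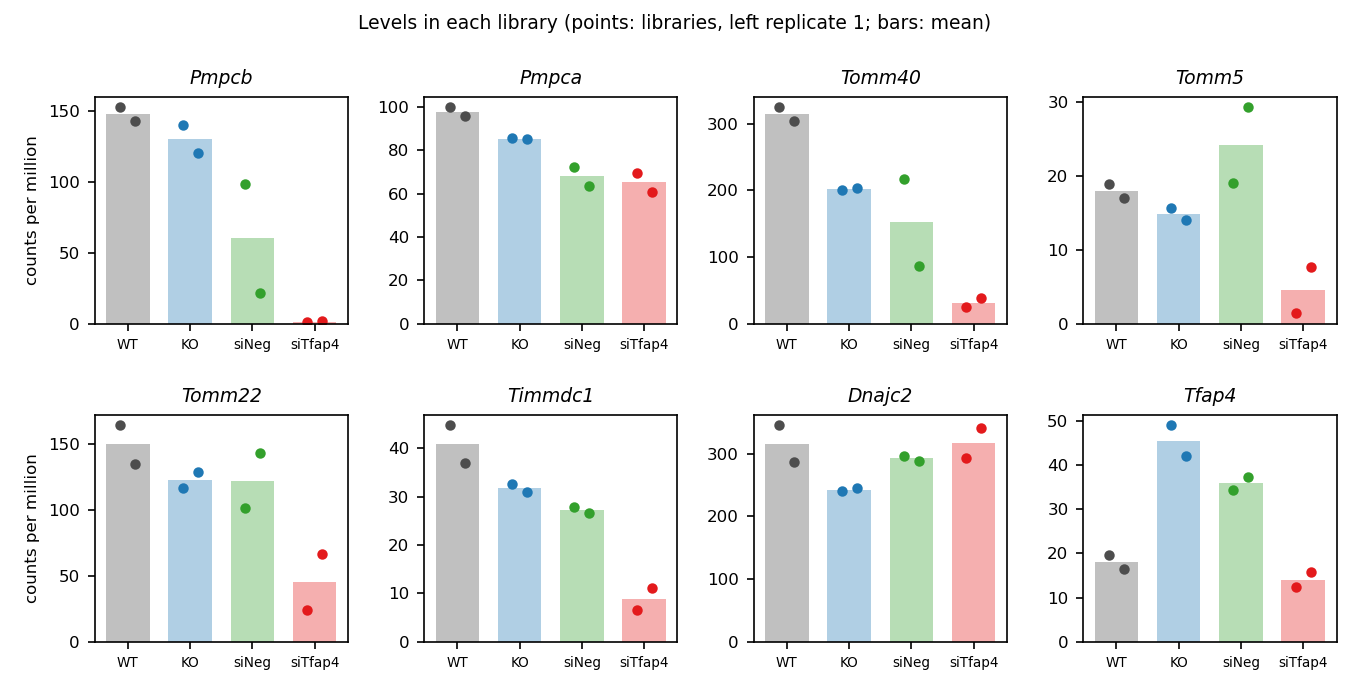
Level in each library in CPM for Pmpcb, Pmpca, 4 genes called lower in siTfap4 (Tomm40, Tomm5, Tomm22, Timmdc1), the gene next to Pmpcb (Dnajc2) and Tfap4; points are libraries with replicate 1 on the left, and bars are means of 2. Pmpcb and Tomm40 are each much lower in siNeg replicate 2 (21.97 and 86.2 CPM) than in siNeg replicate 1 (98.96 and 217.5 CPM).

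The SAM genes did not share a direction. Mtx2, a metaxin that sits beside the SAM core on the outer membrane, stood at 31.6 and 25.5 CPM in siNeg and 3.31 and 17.9 in siTfap4 (log2 fold change -1.41, SE 0.49), without a call. Its fold change ran from -3.10 to -0.67 without siTfap4 replicate 2 and replicate 1, of which replicate 1 lay far lower. Mtx1, its partner, was at 28.3 and 41.2 CPM in siNeg and 66.5 and 46.4 in siTfap4 (0.70, SE 0.27). Samm50, the barrel that forms the SAM core, overlapped between the groups (-0.19, SE 0.23).

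The small chaperones of the intermembrane space were split, with 4 of 7 above 0 and 3 below. Timm8a1, which carries precursors together with Timm13, was the one called higher, at 5.31 and 6.49 CPM in siNeg and 13.4 and 11.4 in siTfap4 (log2 fold change 1.07, SE 0.33). Timm13 (0.59) and Timm10b (0.68) had siTfap4 libraries above both siNeg libraries, while Timm10 (0.18), the partner of Timm9, overlapped. Timm8b went the other way, at 105.3 and 179.3 CPM in siNeg and 32.4 and 98.7 in siTfap4 (-1.12, SE 0.41), as did Timm9, at 68.6 and 93.1 against 28.0 and 65.5 CPM (-0.79, SE 0.32). For both of these, siTfap4 replicate 1 was the lowest of the 8 libraries and replicate 2 lay just under the lower siNeg library. Timm8a2, a low-level paralog of Timm8a1, overlapped between the groups (-0.71, SE 0.57).

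In the TIM22 complex, Timm29, a subunit that holds the complex together, was called lower, at 22.1 and 22.6 CPM in siNeg and 10.3 and 13.8 in siTfap4 (log2 fold change -0.89, SE 0.28). Timm22, its channel-forming subunit, stood at 27.3 and 44.6 CPM in siNeg and 64.3 and 55.2 in siTfap4 (0.74, SE 0.27). In the TIM23 complex the paired channel genes Timm17a and Timm17b stood on opposite sides of siNeg. Timm17b was called higher, at 51.2 and 73.1 CPM in siNeg and 121 and 101.6 in siTfap4 (0.84, SE 0.25), and Timm17a was at 114.8 and 153.2 CPM against 73.9 and 107.7 (-0.56, SE 0.25). The channel gene Timm23 stood at 58.2 and 67.8 CPM in siNeg and 8.79 and 42.6 in siTfap4 (-1.29, SE 0.49), not called and with the shared sequence noted above. Timm50, the receptor that takes presequences from TOM, was above siNeg in both siTfap4 libraries (0.64, SE 0.26), and Timm21, which links TIM23 to TOM, overlapped (-0.57, SE 0.52).

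In the import motor, 4 of 6 genes lay above 0 and 1 was called lower. Dnajc19, a J-protein that stimulates the motor's Hsp70, stood at 30.8 and 38.3 CPM in siNeg and 9.3 and 18.2 in siTfap4 (log2 fold change -1.32, SE 0.33). Dnajc15, its paralog, stood at 23.9 and 34.8 CPM in siNeg and 45.9 and 44.9 in siTfap4 (0.63, SE 0.26), so the pair differed in sign. Hspa9, the matrix Hsp70 itself, was at 913.6 and 949 CPM in siNeg and 512.2 and 644.7 in siTfap4 (-0.69, SE 0.23), without overlap and without a call. Its nucleotide exchange factor Grpel1 (0.16), the tether Timm44 (0.15) and the J-like regulator Pam16 (0.24) differed little.

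The oxidative folding pair also split. Chchd4, which forms disulfides in incoming small proteins, was at 89.2 and 120.4 CPM in siNeg and 53.5 and 76.8 in siTfap4 (-0.68, SE 0.30), and Gfer, which reoxidises it, was at 41.5 and 57.1 against 79.1 and 72.7 CPM (0.62, SE 0.25). Neither was called. Timmdc1, an assembly factor of respiratory complex I whose symbol brings it into the set, stood at 27.8 and 26.6 CPM in siNeg and 6.63 and 11.2 in siTfap4 (-1.60, SE 0.30) and was called lower.

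Calls in this comparison leaned on single libraries to unequal degrees. Without siTfap4 replicate 1, the calls of Dnajc19, Timm29, Tomm22, Tomm70a, Timm17b and Timm8a1 were lost. Without siNeg replicate 1, those of Dnajc19, Timm29, Timm17b and Timm8a1 were lost, and without siNeg replicate 2, those of Dnajc19, Timm29, Tomm22, Tomm70a and Timm8a1. The number called lower ran from 4 to 14 over these 4 fits, with 4 without siTfap4 replicate 1, 5 without siNeg replicate 2, 6 without siNeg replicate 1 and 14 without siTfap4 replicate 2. Sizes moved as well. Tomm40 was at -1.44 without siNeg replicate 1 and at -2.78 without siNeg replicate 2, and Tomm5 at -1.65 without siTfap4 replicate 1 and -4.09 without siTfap4 replicate 2. Timm23 and Timm8b, neither of them called, were at -0.56 and -0.53 without siTfap4 replicate 1 and at -2.84 and -2.14 without siTfap4 replicate 2. Pmpcb had its smallest difference, -3.78, without siNeg replicate 1.

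**Figure D3:**
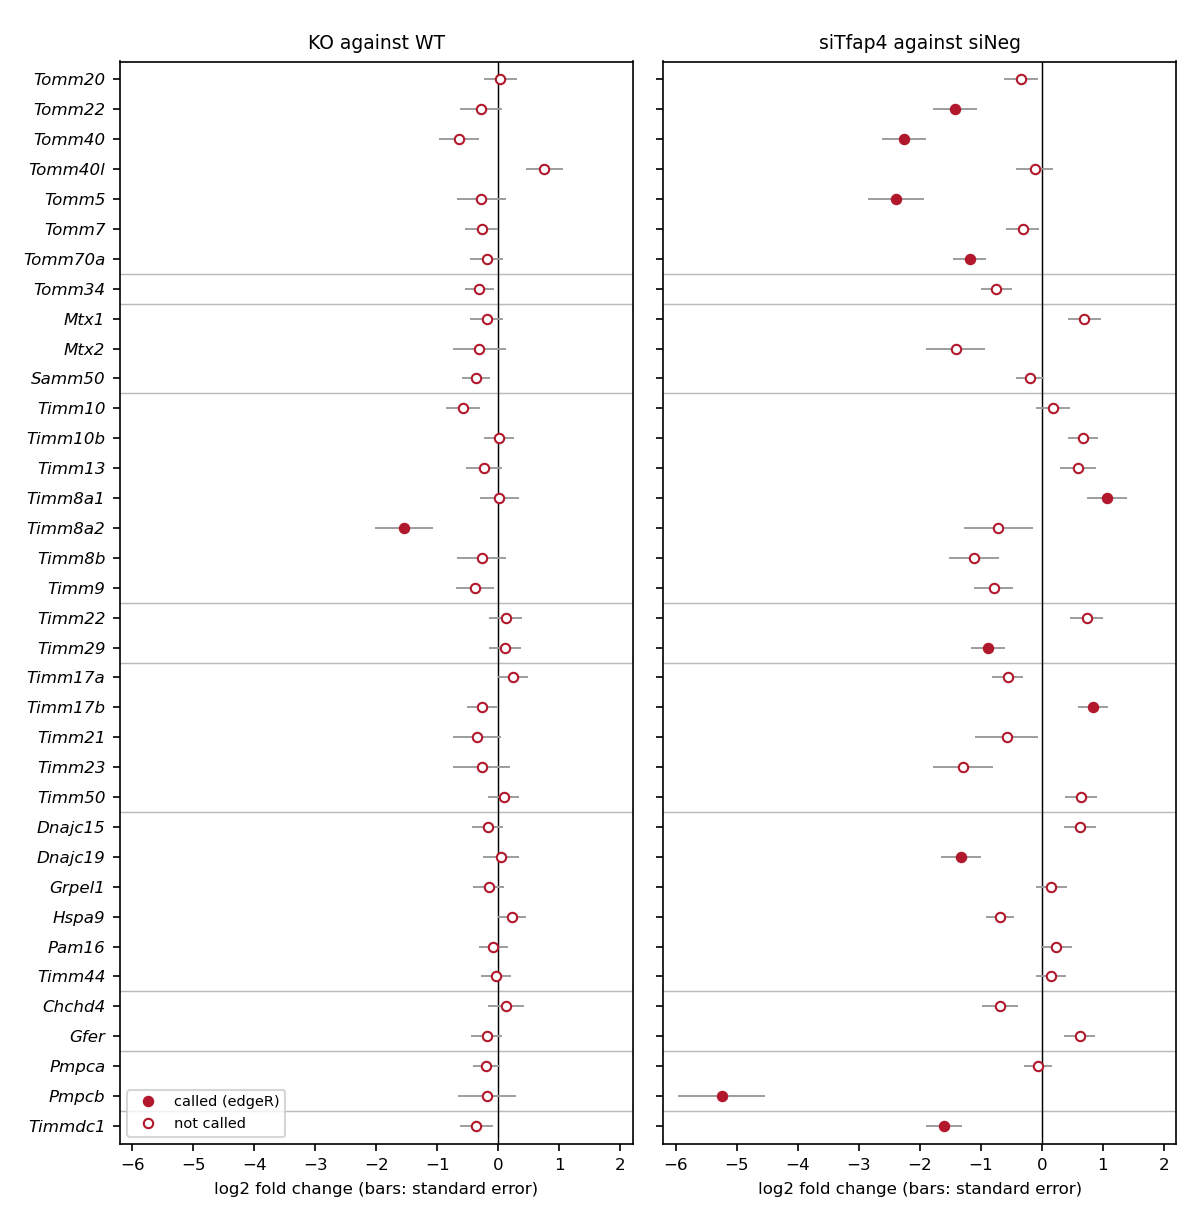
Log2 fold change of each of the 36 genes, with its standard error, for KO against WT (left) and siTfap4 against siNeg (right); filled points were called at an adjusted p under 0.05 by edgeR, which in the right panel only describes the set. The KO values lie between -1.54 and 0.76 with 1 filled point, and the siTfap4 values between -5.25 and 1.07 with 10.

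The knockdown libraries also differed in base composition at the 3′ end, and the fold changes of these genes moved with it. The count-weighted GC percent of the last 100 transcript bases was 36.8 and 38.1 for siNeg and 39.4 and 38.7 for siTfap4, and the 4 untreated libraries lay between 37.0 and 37.5. Across the 36 genes, the log2 fold change in siTfap4 against siNeg correlated with this GC percent (Pearson 0.61, Spearman 0.70), and across 15126 genes the values were 0.35 and 0.42. These are correlations over genes measured in the same 4 libraries, and genes are not independent replicates. The 14 genes with at least 40% GC had a median of 0.61 and the 22 below it a median of -0.84, beside 0.35 and -0.23 over all genes. Pmpcb, Tomm70a and Timmdc1 all have 24%, and Pmpca and Grpel1, which differed little as counted, have 25%. With the correction described next, Pmpca stood at 0.46 and Grpel1 at 0.63, without a call.

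A lowess correction for this GC percent left Pmpcb at -4.62, Tomm5 at -2.20, Tomm40 at -1.99, Tomm22 at -1.31, Timmdc1 at -1.08 and Dnajc19 at -1.01. The calls of Tomm70a (-0.69), Timm29 (-0.55), Timm17b (0.51) and Timm8a1 (0.98) were lost. Hspa9 (-0.86) and Timm17a (-0.80) were called lower and Dnajc15 (0.91) higher after the correction. So 8 genes were called lower with and without it, of which 6 were shared.

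**Figure D4:**
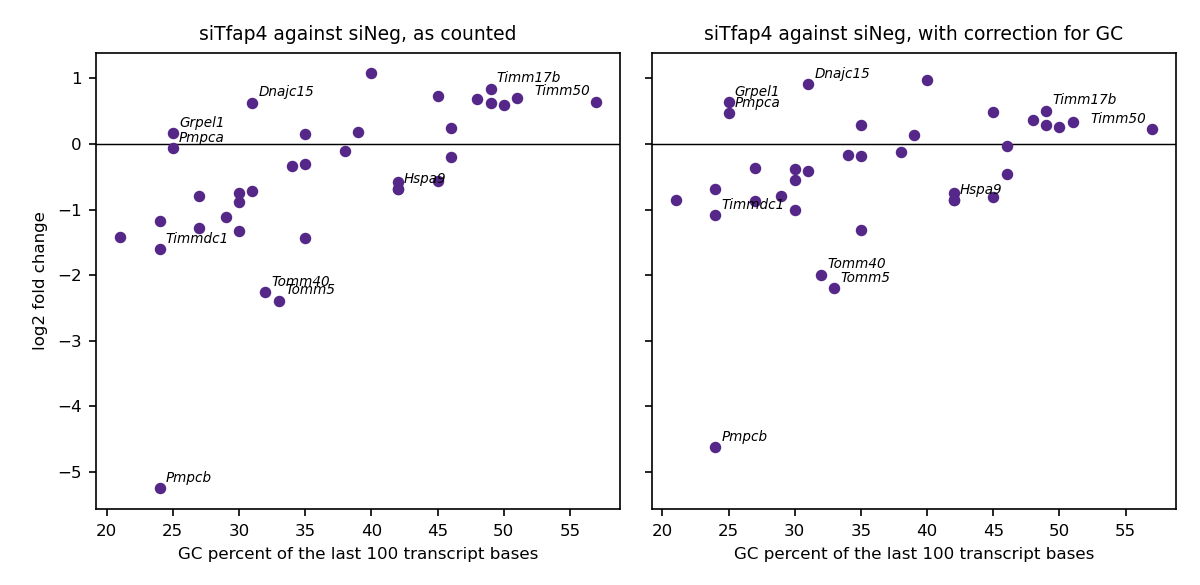
Log2 fold change of siTfap4 against siNeg for the 36 genes plotted against the GC percent of the last 100 transcript bases, as counted (left) and with a correction for that GC percent (right). Pmpcb stays apart from the rest, at -5.25 before and -4.62 after the correction.

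The duplicates of the siPOOL set differed in a shared direction over these genes. In siNeg 28 of 36 genes were higher in replicate 2, with a median log2 difference of -0.44 between replicates 1 and 2 beside 0.03 over all tested genes. In siTfap4 24 of 36 were higher in replicate 2, with a median of -0.41 beside 0.01. In the untreated set 23 of 36 were higher in WT replicate 1, and in KO 18 were higher in each replicate. The chi-square per degree of freedom between duplicates was 19.5 for WT, 11.7 for KO, 38.4 for siNeg and 29.8 for siTfap4. The part of this spread in the values above was not tested.

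The comparison of KO against WT addresses the loss of the microRNA cluster. The reason given for the set names only the knockdown, but the members were chosen with earlier results of these data known. Most of the machinery differed by less than the test could call. Of 36 genes 1, Timm8a2, was called lower, where 3.96% of all tested genes were, and 0 were called higher, where 5.99% were. At an unadjusted p under 0.05 there were 2. The log2 fold change was below 0 for 25 genes and above 0 for 11, with a median of -0.19 beside -0.01 over all genes. Both KO libraries lay below both WT libraries for 20 genes (55.6%), where 28.6% of all genes did, and above them for 3 (8.33%), where 28.9% did. The summed level described above was likewise lower in both KO libraries than in either WT library, with means of 3830 and 4176 CPM. Over the alternatives that kept all 36 genes, 25 to 28 lay below 0, but these refit the same libraries. The counts and the summed level describe the same genes in the same libraries, and genes are not independent replicates. The summed endoderm and fibroblast markers given above, the latter mostly Thy1, were also lower in KO, and their part in these values was not tested.

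Timm8a2 is a paralog of Timm8a1, which chaperones precursors across the intermembrane space (chromosome 14, 122034674 to 122038420, plus strand). It had 57 and 48 counts in WT and 20 and 20 in KO, or 4.63 and 4.65 CPM against 1.53 and 1.65 CPM. All KO values lay below all WT values, with a log2 fold change of -1.54 (SE 0.47, adjusted p = 0.0487, edgeR). The call did not survive the removal of any single library, with adjusted p between 0.136 and 0.248, nor the use of DESeq2 (adjusted p = 0.0858) or limma-voom (adjusted p = 0.0653). In siNeg it stood at 3.6 and 1.36 CPM.

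Pmpcb had a mean of 148.2 ± 6.53 CPM in WT cells against 130.5 ± 13.7 CPM without the cluster (SD, n = 2), a log2 fold change of -0.18 (SE 0.48, adjusted p = 0.873, edgeR). Its groups did not overlap, but the difference was smaller than this error, which pools the spread of all 4 groups, the siPOOL groups included. With the 4 untreated libraries fitted alone, the Pmpcb log2 fold change was -0.18 (SE 0.15, adjusted p = 0.502, edgeR). After Timm8a2, the lowest value was that of Tomm40, at 324.2 and 304.5 CPM in WT against 199.7 and 203.7 in KO (log2 fold change -0.64, SE 0.33, adjusted p = 0.265, edgeR). Tomm40 was called when the 4 untreated libraries were fitted alone (adjusted p = 0.0178, edgeR). Timm10, a carrier chaperone, stood at 69.2 and 45.2 CPM in WT and 35.8 and 41.0 in KO (-0.58, SE 0.28, adjusted p = 0.221, edgeR).

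The highest value in KO was that of Tomm40l, at 12.3 and 13.5 CPM in WT and 21.2 and 22.3 in KO (log2 fold change 0.76, SE 0.31, adjusted p = 0.141, edgeR). It stood apart from its paralog Tomm40 in sign, and neither passed the test. Tomm40l shares 4691 bases with Nr1i3 on the opposite strand, with the 3′ ends of both genes inside. Without the strand setting, some reads counted for Tomm40l may belong to Nr1i3. Timm17a and Hspa9 were the other genes with both KO libraries above both WT libraries, with log2 fold changes of 0.23 (SE 0.24) and 0.23 (SE 0.23). By role, the medians were -0.28 for TOM, -0.31 for SAM, -0.27 for the small chaperones, 0.11 for TIM22, -0.27 for TIM23, -0.06 for the motor, -0.03 for oxidative folding and -0.19 for the peptidase. The median standard error over the 36 genes was 0.27, so role medians of this size lie near the error of a single gene.

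The cluster's microRNAs bind targets through their seed, bases 2 to 8, which 3 of the mature forms read from RefSeq share. They are shown 5′ to 3′ with the seed in capitals, because its complement was the word searched for below. The seeds of mmu-miR-290a-3p, mmu-miR-291b-3p and mmu-miR-293-3p differ from it, and their full complements were not searched. Other mature forms of the cluster were not read.

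mmu-miR-291a-3p: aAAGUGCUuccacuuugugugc

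mmu-miR-294-3p: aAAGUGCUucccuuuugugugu

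mmu-miR-295-3p: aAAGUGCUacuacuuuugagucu

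These lie on the plus strand at chr7:3218968-3218989, chr7:3220691-3220712 and chr7:3220815-3220837 (GRCm38.p6).

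The complement of this seed, AGCACTT, was found in the annotated 3′ UTR (longest coding transcript) of 8 of the 36 measured genes (22.2%), beside 17.1% of 12806 genes with such a UTR. The 8 are Tomm20, Tomm7, Tomm40l, Timm9, Timm13, Timm29, Timm17a and Timm17b, with 2 matches each in Tomm20, Timm17a and Timm17b. Their KO against WT log2 fold changes ran from -0.38 to 0.76, with 4 above 0 and 4 below, and a median of -0.10 beside -0.19 for the other 28. Those 28 lack AGCACTT but are not free of matches to the cluster. Dnajc15, Dnajc19, Grpel1, Pmpca and Samm50 carry the shorter word GCACTT, which mmu-miR-290a-3p and mmu-miR-291b-3p also match. Over all genes the medians with and without a match were 0.10 and -0.02. One match is shown for each of the 2 genes with a match that stood highest in KO and had groups without overlap, in capitals with 10 bases on each side.

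Tomm40l: ttaccgagcgAGCACTTgcttcctgaa

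Timm17a: taaaaaggacAGCACTTaattggggct

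Both genes lie on the minus strand, and the stretches are chr1:171216904-171216930 for Tomm40l and chr1:135300337-135300363 for Timm17a (GRCm38).

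Of the genes called lower in siTfap4, Timm29 carries AGCACTT, while Pmpcb and the TOM genes among them do not. A match in an annotated UTR is a description and does not show repression.

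Genes that lie beside the called members were read for the same libraries, because the strand setting of the counting is not given in the sources used here and overlapping genes may share reads. Dnajc2, a ribosome-bound J-protein gene, ends 115 bases past the end of Pmpcb on the opposite strand. It stood at 296.5 and 288.8 CPM in siNeg and 293.5 and 341.3 in siTfap4 (log2 fold change 0.12, SE 0.22), so the low Pmpcb level was not shared by its neighbour. Napepld, on the other side of Pmpcb, overlapped between the groups (-0.56, SE 0.37).

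Nit2, an amidase gene, overlaps Tomm70a by 41 bases at the 3′ ends of both genes on opposite strands. It stood at 28.8 and 39.5 CPM in siNeg and 7.64 and 16.4 in siTfap4 (2.82-fold lower) and was called lower too, so reads from the overlap cannot be assigned with certainty. Fxr1, an RNA-binding protein gene that overlaps Dnajc19 on the opposite strand, did not follow it (0.21, SE 0.23). Of the other neighbours, Tm9sf2 beside Timm8a2 (-2.44) and Fbxo10 beside Tomm5 (-1.58) were called lower in siTfap4 and Taf7l beside Timm8a1 (1.36) was called higher. In KO against WT, Poglut1 and Cd80, which flank Timmdc1, had log2 fold changes of 0.79 (adjusted p = 0.0428) and -1.69 (adjusted p = 0.0482) by edgeR. Pam16 lies 56610 bases from Tfap4 on chromosome 16, and its level did not follow that of Tfap4, at 29.3 and 39.8 CPM in siNeg and 39.6 and 41.9 in siTfap4.

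A list of 47 other genes of mitochondrial import, processing and protein quality control, all measured, gives the surroundings of the set. In KO against WT, 2 (4.26%) were called higher by edgeR, beside 5.99% of all tested genes, and 0 were called lower, beside 3.96%. The median was -0.03, beside -0.01 over all genes. Vdac3, a channel of the outer membrane, stood at 47.5 and 45.0 CPM in WT and 106.5 and 95.6 in KO (log2 fold change 1.13, SE 0.26, adjusted p = 0.0106, edgeR). Pink1, a kinase that accumulates on mitochondria when import fails, stood at 12.03 and 9.98 CPM in WT and 27.6 and 18.6 in KO (1.07, SE 0.30, adjusted p = 0.0316, edgeR). For both genes the KO libraries lay above both WT libraries.

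In siTfap4 against siNeg, given as a description like the set itself, 11 of the 47 (23.4%) were called lower, beside 11.1% of all tested genes, and 1 (2.13%) higher, beside 4.36%. The median was -0.17, beside 0.01 over all genes. Of the 11, the 8 with the smallest adjusted p were named by rule. Cox17, a copper chaperone of the intermembrane space imported by Chchd4, was nearly as low as Pmpcb, at 89.5 and 58.5 CPM in siNeg and 2.17 and 4.84 in siTfap4 (log2 fold change -4.38, SE 0.37). Both siTfap4 libraries lay far below the other 6, where the lowest value was 58.5 CPM. Hspa8, the cytosolic Hsp70 that delivers precursors, was at 137.2 and 132 CPM against 26.8 and 19.7 (-2.54), and it is uncertain because 59.4% of its 3′ words occur in other loci. The matrix J-protein gene Dnaja3 was at 65.9 and 68.7 CPM against 11.98 and 19.0 (-2.12). The other 5 of these 8 were the iron-sulfur co-chaperone gene Hscb (-1.58), the inner membrane scaffold gene Stoml2 (-1.46), the matrix protease gene Lonp1 (-1.26), the outer membrane channel gene Vdac1 (-1.26) and the cytosolic J-protein gene Dnaja1 (-1.23). The 3 called genes outside the rule, named after their values were seen, were Apoo (-2.40), Dnaja2 (-1.10) and Atad1 (-1.02). The gene called higher was Mtch1, a relative of the outer membrane insertase Mtch2, at 90.3 and 150 CPM against 284.2 and 195.3 (1.00, SE 0.27), named after its values were seen.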

How the data were processed

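The deposited table holds whole-number read counts per Ensembl gene for 8 libraries. Per the submitters' processing notes, Trim Galore trimmed the reads and GRCm38 was the genome. The aligner, counter, strand setting and annotation were not given in the sources used here. Symbols, coordinates and transcripts came from GENCODE vM21 (GRCm38), which named 55240 of 55421 identifiers, and promoter and microRNA sequences from RefSeq (GRCm38.p6). Counts were filtered with filterByExpr, scaled by TMM and fitted with edgeR 4.0.16 in R 4.3.3 (quasi-likelihood, robust, 4 group means, 4 residual degrees of freedom), with Benjamini-Hochberg adjustment over 15137 genes at 0.05. P-values set each difference between groups against the spread between duplicates, pooled over the groups. Levels are CPM computed here from the counts. The fit was tested on simulated data.

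The members and lists were chosen with earlier results of these data known. The genes named were all members, Tfap4, the nearest and overlapping protein-coding genes of called members, and up to 8 called genes per comparison of the other import list. Alternatives were DESeq2 1.42.0, limma-voom (limma 3.58.1), the legacy fit, other filters (none, or at least 5 CPM in 2 libraries), 4 libraries alone, a threshold of 0.1, a replicate block, a block for a tag in the titles (chosen after seeing the data), each library left out, and an offset for GC at the 3′ end (last 100 bases, lowess, span 0.3). A comparison of protein sequences was planned and not run.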

Additional observations from a re-analysis of the deposited data

How the results depend on the processing

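With 2 libraries a group, differences below about the size of the standard errors given are not resolved, and larger ones also went uncalled. In the main fit, Tomm40 in KO against WT (-0.64, SE 0.33) and Hspa9 in siTfap4 against siNeg (-0.69, SE 0.23) were not called. In KO against WT, no member was called lower (0) in the legacy fit, with a replicate block, by limma-voom and by DESeq2, nor with the filter of 5 CPM, which leaves Timm8a2 untested, and 2 were with the 4 libraries alone. The all-gene count was 610 to 857 with a library left out (1506 with all), and members called lower 0 to 0. In siTfap4 against siNeg, a threshold of 0.1 gave 3528 genes (2334 at 0.05), 6 members higher and 13 lower. Members called higher numbered 1 with a replicate block, with no filter on low counts, and with the GC correction with or without the block, and 0 with the 4 libraries alone. With a library left out, genes called ranged from 499 to 2987, members higher from 0 to 6 and members lower from 4 to 14. The replicate numbers were not shown to pair libraries (deviations of same-numbered libraries correlated at -0.06 in the untreated and 0.13 in the siPOOL set), and the replicate block gave 1337 and 2064 genes and 12 members called lower in siTfap4, of which 7 were shared. A block for the title tag CC shared by WT replicate 1 and KO replicate 2, chosen after seeing the data, gave 1443 genes and 0 members called lower (Timm8a2 adjusted p = 0.0524, edgeR), and deviations correlated at 0.06 by that pairing. Without siTfap4 replicate 1, 12 genes were called higher and 487 lower, and without siNeg replicate 1, 34 and 698, beside 660 and 1674 with all libraries. The GC correction gave 609 and 1227. The summed member level in KO was 3942 scaled by library totals and 3830 with TMM. No value called with all libraries changed sign. Of the uncalled members, 11 changed sign under some alternative in KO against WT, from values of at most 0.19 in size, and 10 in siTfap4 against siNeg, among them Timm8a2, from -0.71 to 0.18 without siNeg replicate 1. The causes were not tested.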
